A study of Mus musculus with 13 samples.

Results

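Genes of epithelial antimicrobial and mucosal defence were followed in mouse liver during cholangitis, namely Lcn2, Wfdc18, Wfdc2, Slpi, Pigr, Sftpd, Lyz2, Lyz1, Ltf and Nos2. All 10 of them were present among the 55353 gene symbols of the count matrices. Their unique molecular identifiers (UMIs, each standing for 1 captured transcript molecule) were read in barcodes with at least 1500 UMIs. Biliary epithelial cells (BECs) were taken as barcodes with at least 2 Epcam UMIs, at least 2 UMIs of Krt7 and Krt19 together and no UMI of the pan-leukocyte gene Ptprc. This gate held 3848 of 95563 barcodes, or 4.03%, over 13 droplet libraries.

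The libraries came from livers of male C57BL/6J mice aged 6 to 12 weeks, with no transgene named in their labels, that ate either control chow (D0) or chow with DDC at 0.1%. DDC stands for 3,5-diethoxycarbonyl-1,4-dihydrocollidine, a xenobiotic that injures bile ducts and evokes a ductular reaction. DDC was given for 3, 5, 9, 19 or 25 days (D3, D5, D9, D19, D25), and each day including D0 was sampled once by isolation protocol A and once by isolation protocol B, which gave 12 atlas libraries. A last library, STOP, followed 18 days of DDC and 7 days of recovery and used protocol B. The D19 library of protocol B carries day 18 in another label. Both protocols sorted Epcam+ cells beside several non-epithelial populations at equal ratios, so shares of barcodes reflect the sort. The labels do not say which or how many mice went into a library, so the p-values below measure the spread between libraries. Protocol A libraries used the single index version of the 3′ kit and protocol B libraries the dual index version, and protocol and kit cannot be told apart. The labels date D0 A and D0 B alone, to different years, so date and diet day cannot be told apart.

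Mucosal surfaces such as the bile duct lining defend themselves with secreted proteins that starve, lyse or bind microbes, and with inhibitors that limit damage by leukocyte proteases. Lcn2 encodes lipocalin 2, which captures iron-carrying bacterial siderophores, and Ltf encodes the iron-binding lactoferrin. Wfdc18, Wfdc2 and Slpi belong to the whey acidic protein family, in which Slpi blocks neutrophil elastase. Pigr encodes the receptor that carries polymeric immunoglobulins across epithelium into bile, and Sftpd a collectin that binds microbial sugars. Lyz2 and Lyz1 are the myeloid and the Paneth cell lysozyme, and Nos2 is the inducible nitric oxide synthase. Several of these genes are also known from granules of neutrophils or from macrophages, so the values outside BECs are given as well.

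Each library held between 29307190 and 108602421 UMIs and between 1541 and 14764 barcodes that passed the UMI minimum. BECs were unevenly spread, with 584 in D0 A, 1 in D0 B, 12 in D3 A, 85 in D3 B, 3 in D5 A, 221 in D5 B, 741 in D9 A, 143 in D9 B, 55 in D19 A, 319 in D19 B, 1095 in D25 A, 307 in D25 B and 282 in STOP. In all, 9 atlas libraries had the 20 BECs required for a summed profile, and D0 was then represented by D0 A alone. Levels are given in CPM, the UMIs of a gene scaled to a sum of 1e+06 over all UMIs of the gate in that library. A further 11 biliary markers, among them Sox9, Krt8, Krt18 and Cftr, had a higher median level in BECs than in the other barcodes. Another gate was also passed by 21.6% of BECs, mostly the endothelial one (18.3%). All 78 pairs of libraries shared barcodes, from 1 to 49 a pair, and the 49 of D9 A and D25 A were 0.46% of the smaller library.

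The promoter windows of Lcn2 and Wfdc18 are shown because these genes took similar courses over the diet in BECs. They span the 250 bases before the RefSeq transcript start (GRCm38.p6), at chr2:32387740-32387989 on the minus strand for Lcn2 and at chr11:83708754-83709003 on the plus strand for Wfdc18, each written 5′ to 3′ on the gene's strand. Capitals mark a C/EBP motif in Lcn2 and a TATA box in Wfdc18.
Lcn2: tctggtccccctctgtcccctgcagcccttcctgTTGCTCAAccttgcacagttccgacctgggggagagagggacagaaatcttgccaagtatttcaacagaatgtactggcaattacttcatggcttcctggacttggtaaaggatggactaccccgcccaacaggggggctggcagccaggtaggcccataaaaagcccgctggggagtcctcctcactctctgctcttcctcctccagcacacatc
Wfdc18: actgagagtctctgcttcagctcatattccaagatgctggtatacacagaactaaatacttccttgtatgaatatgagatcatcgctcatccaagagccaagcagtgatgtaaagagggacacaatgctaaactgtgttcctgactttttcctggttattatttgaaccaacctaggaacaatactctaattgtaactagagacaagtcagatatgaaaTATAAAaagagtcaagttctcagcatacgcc
The C/EBP motif (TTGCNNAA, both strands) lay 216 to 209 bases before the start of Lcn2 and was found in 4 of the 8 genes with a window, the others being Slpi, Lyz1 and Ltf, against 9.56% of all 32851 windows. The TATA box (TATAAA, both strands) lay 31 to 26 bases before the start of Wfdc18, the only one of the 8 with it, against 12.4% of all windows. Neither the STAT motif (TTCNNNGAA, both strands, 7.02% of windows) nor the NF-kB motif (7.25%) was present in any of the 8. The motifs overlap no letters of each other in these windows. Such matches describe letters only. Nos2 and Sftpd had no window.

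The lysozyme genes are neighbours on chromosome 10, at chr10:117277331-117282321 for Lyz2 and chr10:117287797-117292868 for Lyz1, both on the minus strand of GRCm38 (GENCODE vM21), and their coding sequences are near copies. The first 150 coding bases of each are shown as an example of this likeness, and capitals mark the 14 positions at which the genes differ.
Lyz2: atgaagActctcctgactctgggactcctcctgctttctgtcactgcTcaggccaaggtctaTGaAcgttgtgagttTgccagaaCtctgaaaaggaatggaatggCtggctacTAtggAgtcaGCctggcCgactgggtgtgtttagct
Lyz1: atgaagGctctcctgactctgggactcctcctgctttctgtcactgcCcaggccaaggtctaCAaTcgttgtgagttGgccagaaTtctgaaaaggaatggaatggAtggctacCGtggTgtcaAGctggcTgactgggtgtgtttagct
Over the whole coding sequence 425 of 447 bases were the same, or 95.1%. The program kallisto assigns reads by 31-base words. Of the words of the annotated transcripts, Lyz2 shared 32.8% with Lyz1 and Lyz1 shared 34.2% with Lyz2. These words span whole transcripts, and in these 3′ libraries the share within the sequenced end was not counted. Counts of either may hold reads of the other, which was not tested. Pigr shared 1.02% of its words with other genes, and the other 7 members shared none.

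The remaining members are protein-coding genes at chr2:32384633-32388252 (Lcn2, minus strand), chr11:83709015-83711348 (Wfdc18, plus), chr2:164562413-164568510 (Wfdc2, plus), chr2:164354070-164389095 (Slpi, minus), chr1:130826684-130852249 (Pigr, plus), chr14:41172214-41185149 (Sftpd, minus), chr9:111019271-111042767 (Ltf, plus) and chr11:78920787-78960254 (Nos2, plus). Wfdc2 and Slpi lie near each other on chromosome 2.

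The first comparison asked where in the sorted liver the members were expressed. Over the pooled libraries Lcn2, Wfdc18, Wfdc2, Pigr and Sftpd had most of their UMIs in BECs. Lyz2 and Lyz1 had most of theirs in macrophages, and Slpi was spread over several gates. Single libraries differed. BECs held 503 of 1653 Lcn2 and 86 of 377 Wfdc18 UMIs in D3 B, but 46400 of 58244 and 12384 of 14892 in D25 A. Of all UMIs in the barcodes of the 12 atlas libraries, BECs held 58.2% of those of Lcn2, 58.7% of Wfdc18, 67.5% of Wfdc2, 60.9% of Pigr, 65.5% of Sftpd, 40.5% of Ltf and 37.3% of Nos2. The macrophage gate held 75.3% of the Lyz2 and 62.3% of the Lyz1 UMIs, against 0.4% and 1.7% in BECs. Slpi had 6.26% of its UMIs in BECs, 21.6% in neutrophils and 16.2% in the mesenchymal gate. The hepatocyte gate held only 12 of the 87083 barcodes of these libraries. These are thus shares of the sorted barcodes and not of the liver, and hepatocytes as a source of the members could not be read.

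Summed UMIs of BECs were tested against those of all other barcodes of the same library in 9 libraries, with edgeR's quasi-likelihood test, library as a block and Benjamini-Hochberg adjustment over 14849 genes. Of the 10 members, 7 were higher and 2 lower in BECs. In the same test 65.7% of all genes were called, 31.6% higher and 34.1% lower, so a call alone sets a gene little apart. On the log2 scale Sftpd was higher in BECs by 3.84 (SE 0.44, adjusted p = 1.27e-05), Wfdc2 by 3.83 (SE 0.35, 1.63e-06), Lcn2 by 3.22 (SE 0.29, 1.47e-06), Pigr by 3.15 (SE 0.31, 3.02e-06) and Wfdc18 by 3.10 (SE 0.39, 2.77e-05), each in 9 of 9 libraries. Nos2 was higher by 1.61 (SE 0.41, adjusted p = 0.00464) and Ltf by 1.44 (SE 0.48, adjusted p = 0.0191), each in 7 of 9 libraries. The Ltf call was lost without D9 A (adjusted p = 0.0651), with DESeq2 (0.0529) and in BECs passing no other gate (0.0530). Lyz2 was lower in BECs in 9 of 9 libraries, with a log2 difference of -5.30 (SE 0.41, adjusted p = 4.27e-07), and Lyz1 in 8 of 9, with -2.92 (SE 0.63, adjusted p = 0.00147). The gate excludes barcodes with a Ptprc UMI, which bears on both lysozymes. Slpi did not pass, at -1.33 (SE 0.59, adjusted p = 0.0667), but did so without D9 B, at -1.70 (adjusted p = 0.0116), with DESeq2 (0.0180), after thinning to 1500 UMIs (0.0449), with a stricter BEC gate (0.0151) and in BECs passing no other gate (0.0392).

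**Figure D1:**
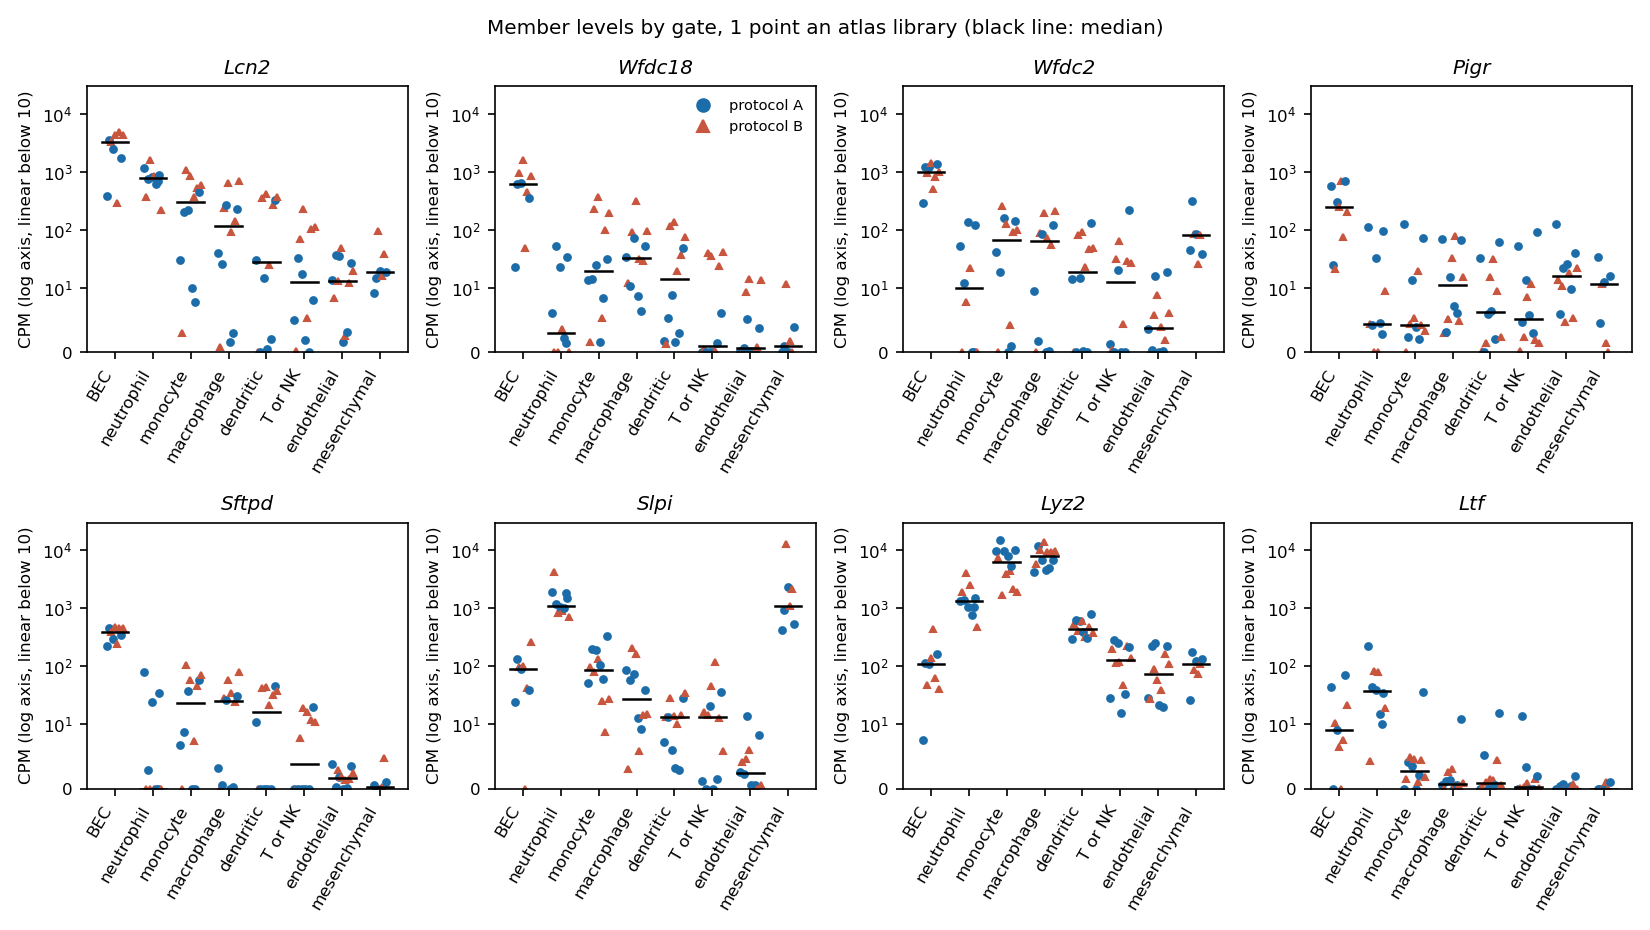
Levels in CPM (log axis, linear below 10) of 8 members in 8 gates, with 1 point for each atlas library that had at least 20 barcodes of the gate, circles for protocol A, triangles for protocol B and a black line for the median. Lcn2, Wfdc18, Wfdc2, Pigr and Sftpd have their highest median in BECs, Lyz2 has it in macrophages, and Slpi has medians of 1105 CPM in neutrophils and 1110 CPM in the mesenchymal gate.

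Free transcripts can enter droplets of any cell type, so a second reading set each member's level in a gate beside that of 6 reference genes of BECs in the same libraries. The reference genes stood at a median of 1.5% of their BEC level in neutrophils (18.7% in D0 A), 12.5% in monocytes, 8.93% in macrophages, 0.488% in endothelial cells and 1.45% in the mesenchymal gate. Lcn2 in neutrophils stood at a median of 33.4% of its BEC level, from 5.16% in D9 B to 304% in D0 A, and above all 6 references in 7 of 7 libraries. On control chow in D0 A its level was thus higher in neutrophils (1155 CPM) than in BECs (380.5 CPM). In macrophages Lcn2 stood at 11%, and it was above all references in 6 of 9 libraries. Pigr in the endothelial gate stood at 7.53%, above all references in 8 of 9 libraries, and ranged from 4.76 CPM in D25 B to 127 CPM in D0 A. Pigr was also read in barcodes of at most 100 UMIs, as a measure of free transcripts. There it was higher than these endothelial levels, at 31.5 CPM in D25 B and 217 CPM in D0 A. It was lower than the endothelial level in some other libraries, among them D5 B (2.19 CPM) and D19 B (6.13 CPM). The part of free transcripts in endothelial Pigr was not tested. Nos2 in the endothelial gate stood at a median of 51.1% of its BEC level, above all references in the 8 libraries with a Nos2 UMI in BECs, but at BEC levels of only 1.52 to 21.4 CPM, so these percentages are coarse. Wfdc18 in monocytes stood at 22.3%, above all references in 2 of 9 libraries, and in macrophages at 11.2% (146% in D0 A), above all references in 6 of 9. Slpi exceeded its BEC level outside the epithelium in every atlas library compared, at medians of 887% in neutrophils and 1782% in the mesenchymal gate. Ltf in neutrophils had a median of 471% but stood below its BEC level in D9 A (49.3%) and D9 B (89.7%).

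The second comparison asked how the members changed in BECs over the diet. Among libraries with at least 20 BECs, Lcn2 and Wfdc18 were lowest in D0 A and D3 B and higher from day 5 on. Lcn2 had 380.5 CPM in D0 A and 285 in D3 B, then 4788 in D5 B. It stood at 1745 in D9 A and 4214 in D9 B, 3514 in D19 A and 3212 in D19 B, and 2440.3 in D25 A and 4354 in D25 B. These 7 libraries from day 5 on lay above both earlier ones, a division made after the values were seen. The share of all genes divided this way was not counted, and for Lcn2 the gap ran from 380.5 to 1745 CPM. The protocol A libraries with few BECs lay inside this gap, with 786 CPM over the 12 BECs of D3 A (95% Poisson interval 659 to 930.4) and 476 over the 3 of D5 A. Wfdc18 had 23.1 CPM in D0 A, 48.8 in D3 B and 446 in D5 B. It then had 359 in D9 A, 859 in D9 B, 616 in D19 A, 940.4 in D19 B, 651 in D25 A and 1569 in D25 B. The highest Wfdc18 level was that of the last protocol B library, and within protocol B the 5 levels followed the order of the days. Each day is a single library there, and the share of all genes in this order was not counted. D3 A had 93.2 CPM of Wfdc18 and D5 A 30.7. The share of BECs with transcripts of the mesothelial markers Msln and Upk3b moved with these courses and is given with Slpi. Counting intervals (95% Poisson) were narrow beside these steps and cover counting error only.

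**Figure D2:**
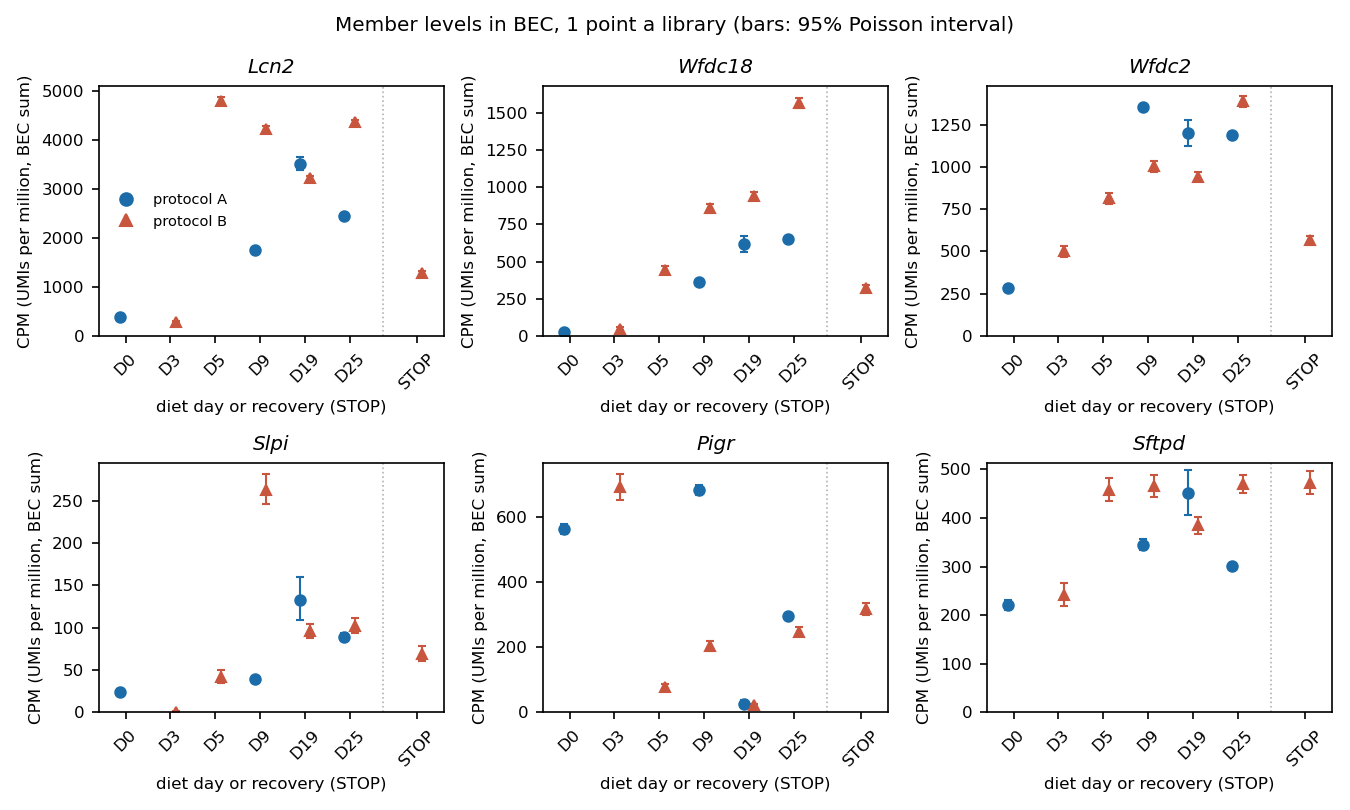
CPM of 6 members in the summed BECs of each library (linear axes from 0) by diet day, circles for protocol A, triangles for protocol B, bars for 95% Poisson intervals, with STOP right of the dotted line. Lcn2 and Wfdc18 are lowest in D0 A and D3 B, Wfdc2 is lowest in D0 A, and Pigr is at 24.6 CPM or less in both D19 libraries.

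The share of BECs with a Lcn2 UMI followed the same course. After each barcode was thinned to 1500 UMIs, 21.7% of BECs had one in D0 A, 23.5% in D3 B and 83.7% in D5 B, and from D9 on the share lay between 45.6% (D9 A) and 83.4% (D19 B). Without thinning the share was 65.8% in D0 A and 93.7% in D5 B. T or NK cells, which should lack the gene, had thinned shares of 0.421% to 3.06% in the 9 libraries, below the BEC share in each. In D0 A the median BEC had 2 Lcn2 UMIs and the highest 681, and the BECs highest for it, 10% of all, held 65.1% of the UMIs. In D5 B the median was 36. The thinned share with a Wfdc18 UMI was 2.05% in D0 A and 5.88% in D3 B, 18.1% in D5 B, and 46.6% in D25 B. The summed level of 7 neutrophil markers in BECs was 1.97 CPM in D5 B, where Csf3r, Cxcr2, Retnlg and Mmp8 were at 0, and at most 94.3 CPM in any library.

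With D0 represented by 1 library, edgeR's quasi-likelihood test of 8 DDC libraries against D0 A called none of the 10 members, while 0.637% of 14294 genes were called, 0.189% higher and 0.448% lower. At an unadjusted p under 0.05 there were 4 members, beside 2756 genes or 19.3% of all tested, and DESeq2 called Wfdc2 and Lyz2, beside 498 genes or 3.48%. Lcn2 was higher under DDC by 2.66 on the log2 scale (SE 1.23, adjusted p = 0.267, higher in 7 of 8 libraries), and Wfdc18 by 3.69 (SE 1.12, adjusted p = 0.130, 8 of 8). The values moved with the early libraries. Without D3 B, Lcn2 was higher by 3.12 (adjusted p = 0.0166) and Wfdc18 by 4.12 (adjusted p = 0.0139), and without D5 B the differences were 1.0 (adjusted p = 0.274) and 2.44 (adjusted p = 0.0687). Both passed without a filter on low counts (adjusted p = 4.67e-05 and 1.94e-11), where 1284 genes did, and Wfdc18 after thinning (0.0232). Late (D9 to D25) against early (D3, D5) diet called none of the members and 0% of all genes. At an unadjusted p under 0.05 there were 6 of 10 members, beside 973 genes or 6.81% of all tested, and DESeq2 called 32 genes and no member. There Wfdc18 differed by 2.08 (SE 0.73, adjusted p = 0.678) and Lcn2 by 0.54 (SE 0.80, adjusted p = 0.940). Without D5 B these became 4.50 and 3.76, and without D3 B Lcn2 turned to -0.38. Each of these fits leaves 1 early library, so its error rests on the spread of the other groups. The early group is thus 1 library on each side of the step.

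Wfdc2 and Sftpd, both already present in control BECs, were higher in every DDC library than in D0 A, as were 12.7% of all 14294 genes tested. Wfdc2 had 286 CPM in D0 A, 500.2 in D3 B, 814 in D5 B, and from 943 (D19 B) to 1389 (D25 B) in the 6 later libraries. These levels did not overlap between D0, early and late diet, which held for 4.81% of all genes, and for 0.93% in this ascending order. Its log2 difference was 1.97 (SE 0.44, adjusted p = 0.0696), with 8 of 8 libraries above D0 A. Without D3 B it was 2.14 (adjusted p = 0.0237), and it also passed after thinning (0.0209), without the protocol term (0.0411) and without a filter on low counts (9.59e-04). Late against early gave 0.70 (SE 0.30, adjusted p = 0.725). Sftpd had 221 CPM in D0 A, 242 in D3 B and 458 in D5 B, and from 300.2 (D25 A) to 469.8 (D25 B) in the later ones, with a log2 difference of 0.77 (SE 0.42, adjusted p = 0.335), which was 0.43 without D5 B (adjusted p = 0.495). Early and late Sftpd levels overlapped.

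Pigr, the immunoglobulin transporter, took another course. It had 564 CPM in D0 A and 693 in D3 B, 76.5 in D5 B, 683 in D9 A and 203 in D9 B, 24.6 in D19 A and 21.2 in D19 B, and 296 in D25 A and 248 in D25 B. D19 was low in both protocols, and the D9 libraries of the protocols lay far apart. The DDC against D0 difference of 0.13 (SE 1.60, adjusted p = 0.978) had no stable sign, since it was -0.98 without D3 B, -0.90 without D9 A and -0.13 without D19 B (adjusted p from 0.731 to 0.979). Late against early diet gave -1.26 (SE 1.16, adjusted p = 0.885), and 0.96 without D3 B, which leaves 1 early library. BECs with at least 2 UMIs of 6 large duct markers (Dmbt1, Muc4, Sox17, Muc3, Cited1, Aqp8) were 11.8% of BECs in D0 A, 27.1% in D3 B, 11.8% in D5 B, 53.3% in D9 A and 31.5% in D9 B, 7.27% in D19 A and 19.7% in D19 B, and 40.6% in D25 A and 21.5% in D25 B.

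The third comparison asked how the members lie along the biliary tree, since large and small ducts differ in mucosal functions. Of all BECs, 1180 had at least 2 large duct marker UMIs and 2466 had none. The study itself used Dmbt1, Muc4 and Sox17 to describe a BEC subset in these libraries, so the split is not independent of them. Pigr and Wfdc2 were higher in large duct BECs, and Slpi, Lcn2, Wfdc18 and Sftpd were higher in the BECs without these markers. At least 20 barcodes on both sides were found in 8 libraries. The duct comparison was not repeated without the BECs that had at least 2 UMIs of Msln and Upk3b. Those BECs held 57.5% of the Slpi, 42.7% of the Wfdc18, 31.1% of the Lcn2 and 28.5% of the Sftpd UMIs of BECs. They held 24.6% of the Wfdc2 and 4.8% of the Pigr UMIs, and their part in the duct differences was not tested.

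**Figure D3:**
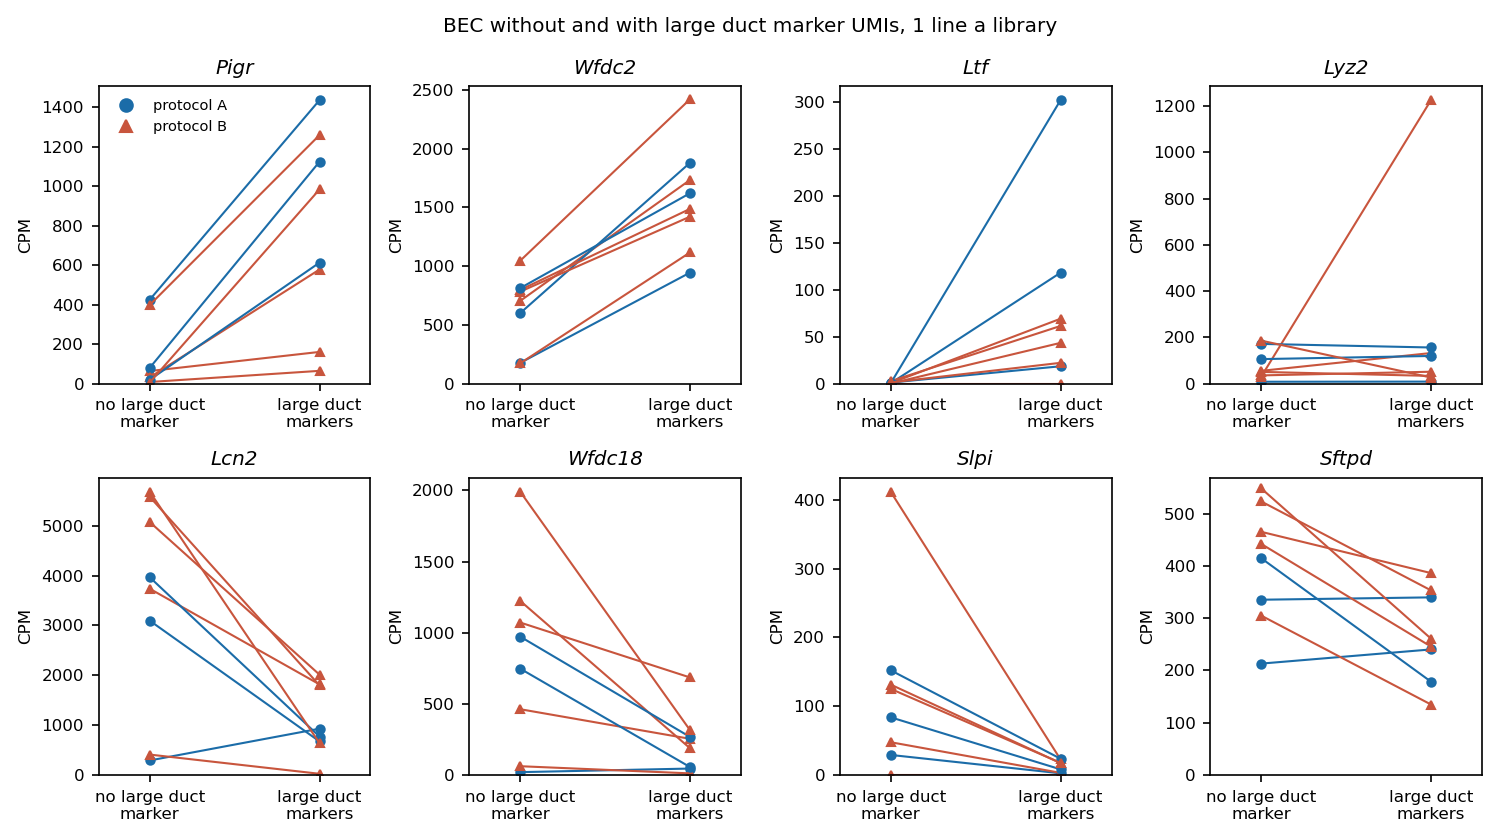
CPM of 8 members in BECs with no large duct marker UMI (left) and with at least 2 (right), 1 line for each of 8 libraries, blue circles for protocol A and red triangles for protocol B, each panel on its own linear axis. Pigr and Wfdc2 rise from left to right in 8 of 8 libraries, Lcn2 and Wfdc18 fall in 7 of 8, and a single line, D3 B, carries the high Lyz2 point of 1227 CPM.

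Pigr in large duct BECs had 1437 CPM in D0 A, 1259 in D3 B, 160.2 in D5 B, 1125 in D9 A, 578 in D9 B, 64.2 in D19 B, 613 in D25 A and 984 in D25 B. In BECs without large duct markers it had 424 in D0 A and 398 in D3 B, then 63.2 in D5 B, 78.8 in D9 A, 30.7 in D9 B, 7.7 in D19 B, 18.7 in D25 A and 4.7 in D25 B. Among the BECs without large duct markers, D0 A and D3 B lay above all later libraries, a grouping made after the values were seen. The share of all genes grouped this way was not counted. In the restricted test of those BECs, an alternative chosen after seeing the data, DDC against D0 gave -1.32 (adjusted p = 0.598) and late against early -4.09 (adjusted p = 0.453). Pigr was higher in large duct BECs by 3.55 on the log2 scale (SE 0.62, adjusted p = 5.73e-04, 8 of 8 libraries) and Wfdc2 by 1.62 (SE 0.21, adjusted p = 5.61e-05, 8 of 8). For these calls edgeR's quasi-likelihood test was used over 10497 genes, of which 42.4% were called, 20.3% higher and 22% lower. Of the members 7 could be tested, with 2 higher, 4 lower and 1 not called.

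Lcn2 in BECs without large duct markers had 292 CPM in D0 A and 410.2 in D3 B, and then between 3098 (D9 A) and 5685 (D25 B) in the other 6 libraries of the test. In large duct BECs it had 930 in D0 A, 24.7 in D3 B, and between 639 (D25 B) and 2013 (D5 B) in the others. D0 A alone was higher on the large duct side. The log2 difference was -1.63 (SE 0.44, adjusted p = 0.0106, lower in 7 of 8 libraries). Wfdc18 differed by -1.64 (SE 0.42, adjusted p = 0.00797, 7 of 8), from 1992 CPM without markers to 315 with them in D25 B. Sftpd differed by -0.49 (SE 0.15, adjusted p = 0.0218, lower in 6 of 8). All 3 calls were lost where 50 barcodes a side were required (adjusted p = 0.110, 0.0760 and 0.155 by the same test) and without the library block (0.0607, 0.0860 and 0.110). The Sftpd call was also lost in BECs free of leukocyte transcripts (0.145), in BECs passing no other gate (0.0516) and without D3 B, D9 B, D19 B, D25 A or D25 B (adjusted p from 0.0517 to 0.0776).

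Ltf and Nos2 were too low for this test and were read as counts. Ltf was found on the large duct side. In D0 A the 69 large duct BECs held 366 Ltf UMIs (302 CPM) and the 486 BECs without markers held 1, and 196 of these UMIs were in a single barcode. In D9 A the large duct side had 789 UMIs (118 CPM, 95% Poisson interval 110.1 to 127) and the other side 1, and in D25 A there were 163 UMIs (18.4 CPM) against 9. Large duct levels were 69.1 CPM in D5 B, 61.4 in D9 B, 43.4 in D19 B and 22.1 in D25 B, and 0 in D3 B with 23 barcodes. Over all BECs Ltf had 43.0 CPM in D0 A and 71.2 in D9 A but 0 to 21.1 in the other 7 libraries, and its DDC against D0 difference was -0.99 (SE 1.37, adjusted p = 0.727).

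Nos2 lay mostly on the other side and late in the diet. Over all BECs it had 1.52 CPM in D0 A, 0 in D3 B and 1.64 in D5 B, and between 2.46 (D19 A) and 21.4 (D19 B) in the 6 late libraries. All late levels lay above both early ones, as for 5.65% of all genes. The margin between D19 A and D5 B is narrow and rests on few UMIs. No barcode had more than 1 Nos2 UMI among the 55 BECs of D19 A, or more than 2 among the 221 of D5 B. Barcodes with at least 2 UMIs of Msln and Upk3b, whose share by library is given with Slpi, held 48.4% of the Nos2 UMIs of BECs. Late against early diet gave 3.63 (SE 1.04, adjusted p = 0.678). In D25 A the BECs without large duct markers held 179 Nos2 UMIs and the large duct BECs 16, at 1.81 CPM (95% Poisson interval 1.03 to 2.93). In D19 B these were 106 (29.0 CPM) and 0, with an upper Poisson bound of 2.96 CPM. In D0 A the order was turned, with 0 UMIs without markers and 13 with them, 9 of which were in 1 barcode. The DDC against D0 difference of 0.62 (SE 1.19, adjusted p = 0.812) became -2.33 without D5 B (adjusted p = 0.742) and -0.10 without D25 A (adjusted p = 0.985).

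Detection within single BECs divided Lcn2 from Pigr and joined it to Wfdc18, Slpi and Sftpd in D9 and D25. After thinning to 1500 UMIs, Lcn2 was detected in 12.9% of the 233 BECs of D25 A with a Pigr UMI and in 74.2% of the 862 without. In D25 B these shares were 11.4% and 87.8%, in D9 B 11.8% and 84.9%, and in D9 A 22.1% and 61.1%. In D0 A they were 23.4% and 20.6%, and both D19 libraries had 5 or fewer BECs with a Pigr UMI. Among BECs with a Wfdc18 UMI, Lcn2 was detected in 89.0% in D25 A against 48.4% of those without, in 97.2% against 59.1% in D25 B, and in 83.2% against 38.0% in D9 A. In D5 B the shares with and without Wfdc18 were 82.5% and 84.0%, in D19 B 85.8% and 81.5%, and in D19 A 93.8% (of 16 BECs) and 71.8%. With and without Sftpd they were 77.1% and 53.8% in D25 A, and with and without Slpi 94.3% and 57.6%. For Wfdc2 they were 57.8% and 69.9% in D25 A but 76.9% and 76.8% in D25 B. Genes other than the members were not read this way. Lcn2 and Pigr lay on opposite sides of the large duct split, whose part here was not tested.

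Slpi, the protease inhibitor, was lower in large duct BECs in 7 of 8 libraries and at 0 on both sides in D3 B, by -3.04 on the log2 scale (SE 0.20, adjusted p = 6.07e-07). Over all BECs it had 23.9 CPM in D0 A, 0 in D3 B, 42.0 in D5 B and 39.1 in D9 A. It then had 263 in D9 B, 133 in D19 A, 95.9 in D19 B, 88.8 in D25 A and 102 in D25 B. Late libraries lay above D0 A, as for 18% of all genes, and early and late overlapped between 39.1 and 42.0 CPM. The DDC against D0 difference was 0.64 (SE 1.2, adjusted p = 0.808) and was -4.58 without D5 B (adjusted p = 0.295). Late against early gave 2.68 (SE 0.97, adjusted p = 0.678).

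The gene whose BEC level was most like that of Slpi over the 9 libraries was Msln, which encodes mesothelin (Pearson r 0.96 of log2 CPM). Msln and Upk3b are known markers of mesothelium, and a split on their UMIs was added after these values were seen. In the mesenchymal gate of the atlas libraries, 176 of 968 barcodes had at least 2 UMIs of the pair, and they held 11501 of 11556 Slpi UMIs, while 778 barcodes with none held 39. In the BEC gate 631 of 3566 barcodes had at least 2, or 17.7%, and they held 2571 of 4469 Slpi UMIs. Their share of BECs moved with the diet, from 1.88% in D0 A and 0% in D3 B to 9.5% in D5 B and 9.45% in D9 A, and 25.6% to 43.6% in D9 B and the D19 and D25 libraries. In D0 A, 11 BECs with the pair held 197 Slpi UMIs (662 CPM) and 561 without held 7 (0.9 CPM). In D9 B the levels were 738 CPM with the pair and 74.1 without, and in D25 A 164 and 43.2. D19 B had 93.2 CPM on both sides, and D5 B had 17.2 with the pair and 45.3 without. BECs of the late libraries with neither transcript had Slpi levels of 18.5 CPM or more, against 0.9 in D0 A. In BECs with no Msln or Upk3b UMI, DDC against D0 gave 4.57 for Slpi (adjusted p = 0.175). The same split in D0 A gave 3373 CPM of Lcn2 in the 11 BECs with the pair and 273 in those without, and in that restricted test Lcn2 differed by 2.67 (adjusted p = 0.277) and Wfdc18 by 3.51 (adjusted p = 0.124), near the values over all BECs. Barcodes with the pair also held 48.4% of the Nos2, 43.5% of the Ltf, 42.7% of the Wfdc18 and 31.1% of the Lcn2 UMIs of BECs. These barcodes held 28.5% or less of the UMIs of Sftpd, Wfdc2, Lyz2, Pigr and Lyz1. Wfdc18 was higher in them in the 8 tested libraries that had any, with 185 CPM against 17.8 without the pair in D0 A, 1431 against 695 in D9 B and 1141 against 370 in D25 A. In barcodes without the pair Wfdc18 had 48.4 CPM in D3 B and 324 (D9 A) to 1168 (D25 B) from day 5 on. Lcn2 was higher without the pair in D5 B and D19 B and with it in the other 6. What part mesothelial cells had in the BEC gate was not tested further.

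**Figure D4:**
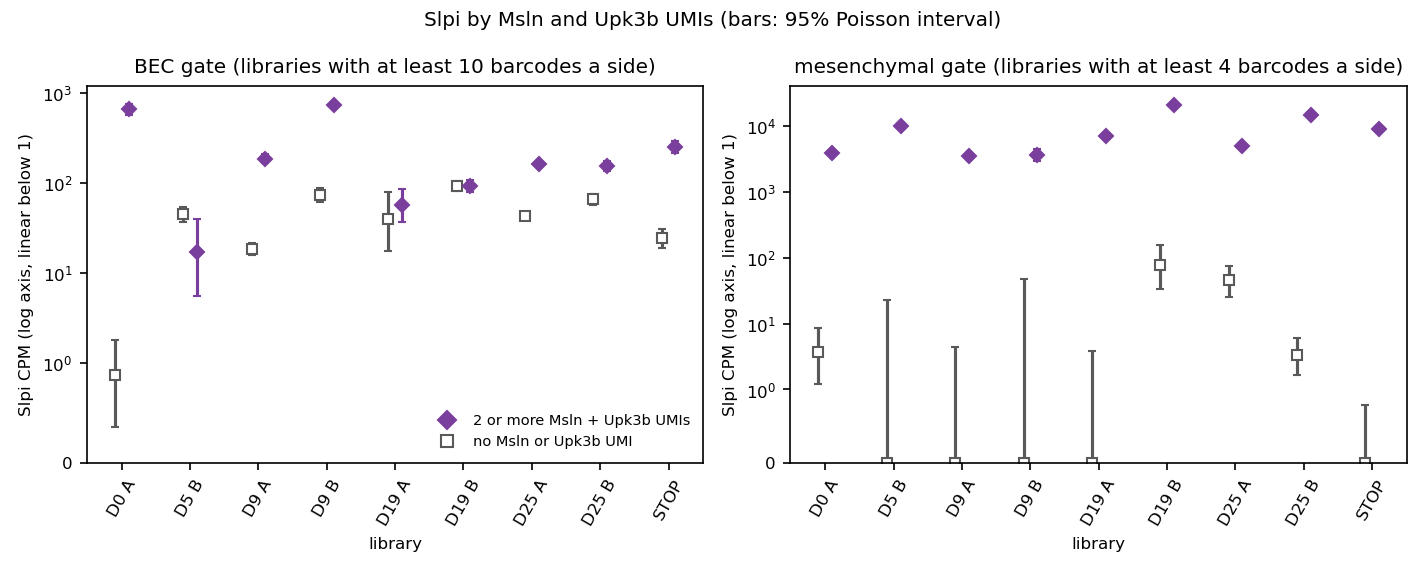
Slpi CPM (log axis, linear below 1) in the BEC gate (left) and the mesenchymal gate (right), diamonds for barcodes with at least 2 UMIs of Msln and Upk3b and open squares for barcodes with none, by library, with 95% Poisson intervals. In the mesenchymal gate the diamonds lie at 3548 CPM or higher, and in the BEC gate both kinds of barcode are at 93.2 CPM in D19 B while D0 A is split between 662 and 0.9.

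Lyz2 in BECs had 7.62 CPM in D0 A, 442 in D3 B, 63.0 in D5 B, 164 in D9 A, 41.0 in D9 B, 112 in D19 A, 48.3 in D19 B, 109.7 in D25 A and 139 in D25 B. All 8 DDC libraries lay above D0 A (12.7% of all genes did so), and a single barcode of D3 B held 736 Lyz2 UMIs, or nearly all of that library's. The log2 difference was 5.14 (SE 1.23, adjusted p = 0.0822), and it was called without D3 B (4.19, adjusted p = 0.0302) and without D5 B (5.51, adjusted p = 0.0266). The thinned share of BECs with a Lyz2 UMI, between 2.23% and 16.4% in these libraries, was below that of T or NK cells, between 5.04% and 44.2%, in 9 of 9 libraries, so it does not exceed the share in cells that should lack the gene. The Lyz2 level of T or NK cells was above that of BECs in 7 of 9 libraries and at 10.8% (D3 B) and 85.6% (D25 B) of it in the others. Barcodes of at most 100 UMIs, read here for free transcripts, had 610 CPM of Lyz2 in D0 A. In the 8 DDC libraries they had from 1999 (D5 B) to 10171 CPM (D19 A), so the free level was also lowest in D0 A. Where the Lyz2 UMIs of BECs came from was not tested. Median depths of BECs in these libraries were 11009 to 23493 UMIs. The 8 macrophage markers were all detected in BECs, with a summed level of 103 CPM in D0 A, 78.5 to 257 in the early and 74.7 to 237 in the late libraries. In BECs free of 4 leukocyte transcripts (Tyrobp, Fcer1g, Laptm5, Coro1a) the difference was 3.71 (adjusted p = 0.0215), after thinning 3.78 (0.00206) and in BECs passing no other gate 3.79 (0.0220). Lyz1 was at 15.3 CPM in D3 B, where 1 barcode held its 27 UMIs, and at 2.85 or less in the other 8, with a fitted difference of 6.09 (SE 2.08, adjusted p = 0.162) that rests on 1 UMI in D0 A.

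The fourth comparison asked whether members known from leukocyte granules changed in the leukocytes themselves. In neutrophils Lcn2 had 1155 CPM (D0 A) and 362 CPM (D0 B) on control chow, 607 and 693 in the D3 and D5 libraries of protocol A, and 217 (D9 B) to 1579 (D19 B) later, with full overlap between groups. Slpi had 1939 CPM in D0 A, 4191 CPM in D0 B, 997 and 1844 in the early libraries, and from 699 to 1480 with a median of 957 in the 6 late ones. Every DDC library was below both D0 libraries for Slpi, as for 2.26% of the 8806 genes tested. Ltf had 219.7 CPM in D0 A but 4.36 in D0 B, 15.1 and 10.1 in the early libraries and 18.9 to 81.3 in the late ones. Its D0 values thus lay on both sides of the DDC values. The D0 B sum held only 229297 UMIs over 66 neutrophils, so its Ltf level stands at the counting floor. Lyz2 ranged from 482 to 4053 CPM with no separation.

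In the test of 8 DDC against 2 D0 libraries, edgeR's quasi-likelihood test called 0 of the 8 members tested and 0.159% of 8806 genes, 0.0227% higher and 0.136% lower. DESeq2 called Slpi alone, beside 72 genes or 0.818%, and 5 members had an unadjusted p under 0.05 in edgeR, beside 854 genes or 9.70%. Slpi gave a log2 difference of -1.62 (SE 0.44, adjusted p = 0.207, lower in 8 of 8 DDC libraries), which was -0.44 without D0 B (adjusted p = 0.772), -2.60 without D0 A (0.0561) and -0.58 at 3000 UMIs (0.743). Ltf gave -2.29 (SE 0.61, adjusted p = 0.200) but 2.82 without D0 A (adjusted p = 0.314) and -3.14 without D0 B (adjusted p = 0.00587), and Lcn2 -0.07 (SE 0.53, adjusted p = 0.997). Pigr and Sftpd gave -2.95 (SE 0.93, adjusted p = 0.291) and -5.60 (SE 1.29, adjusted p = 0.186), the latter called without D19 A (-5.15, adjusted p = 0.0167). Both had their highest neutrophil level in D0 A, at 112 and 80.1 CPM, where the BEC markers summed to 5766 CPM in neutrophils, against 711 in D0 B and 520 to 3038 CPM in the DDC libraries. The part of free or attached epithelial transcripts in these values was not tested.

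In monocytes and macrophages together, Lyz2 had 4589 CPM (D0 A) and 6242 CPM (D0 B), 4929 to 8514 in the 4 early and 7033 to 12856 in the 6 late ones. Late libraries lay above both D0 libraries in these CPM, as for 6.67% of the genes tested, and the early ones overlapped with them. After TMM scaling, as the test uses it, 4 of the 10 DDC libraries lay above both D0 libraries. Over 10 DDC and 2 D0 libraries the log2 difference was 0.49 (SE 0.33, adjusted p = 0.504). Lyz1 was the 1 member called among 10, beside 1.28% of 14331 genes, 0.523% higher and 0.761% lower. It had 24.4 CPM (D0 A) and 301.5 CPM (D0 B) on control chow, and 10.4 to 46.0 in the 10 DDC libraries, with a log2 difference of -3.01 (SE 0.61, adjusted p = 0.0385). D0 B alone is high, and D0 A lies inside the DDC range. Without D0 B the difference was -0.21 (adjusted p = 0.849), and without any of 8 DDC libraries (D3 B, D5 A, D5 B, D9 A, D9 B, D19 B, D25 A, D25 B) the adjusted p lay between 0.0549 and 0.0853. Lcn2 in this gate had 1.5 and 38.9 CPM in D0 and a median of 309 in the late libraries, with a fitted difference of 1.89 (SE 1.46, adjusted p = 0.572) that was 7.67 without D0 A (adjusted p = 0.100) and 0.45 without D0 B (0.885). The BEC markers there summed to 247 and 1436 CPM in D0 and to 2413 to 7849 in the late libraries.

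**Figure D5:**
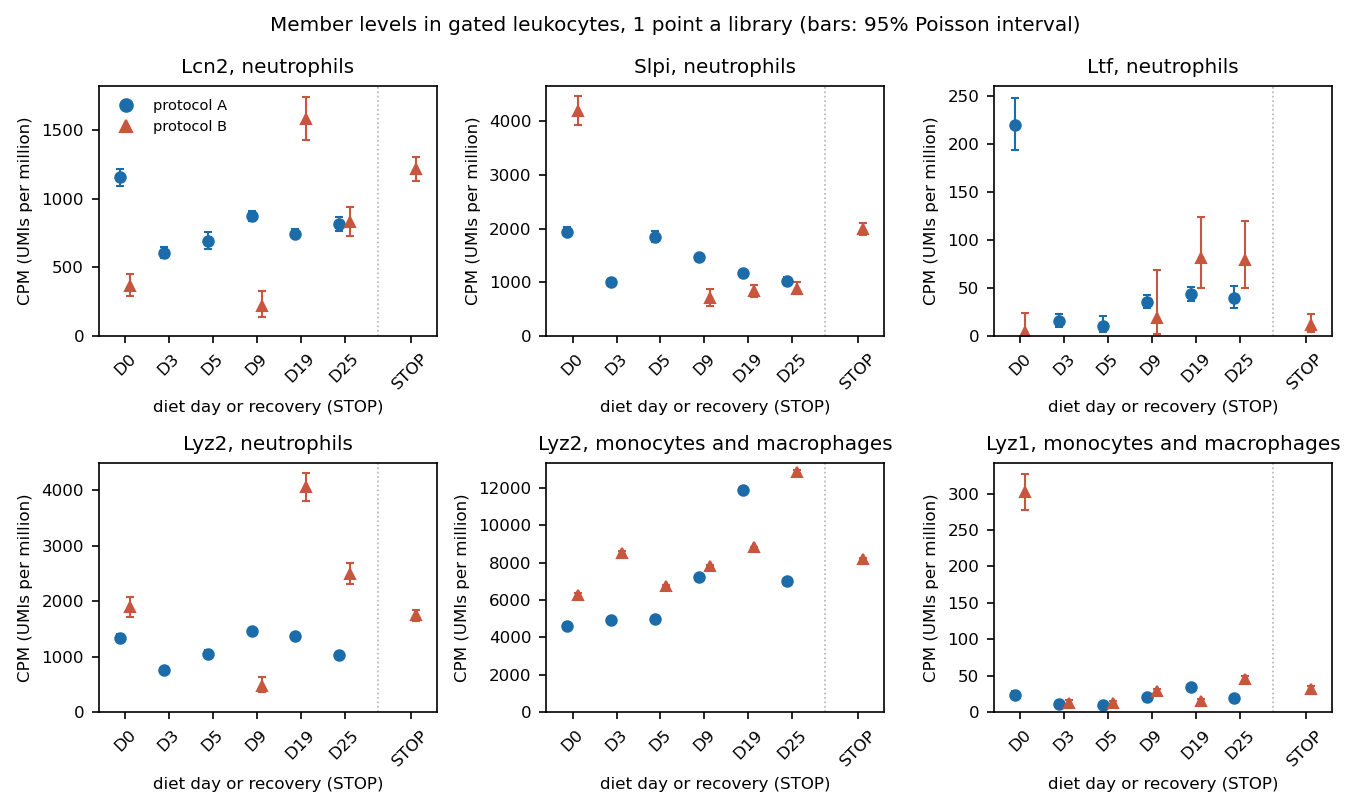
CPM of Lcn2, Slpi, Ltf and Lyz2 in neutrophils and of Lyz2 and Lyz1 in monocytes and macrophages by diet day, 1 point a library with at least 20 barcodes of the gate, with 95% Poisson intervals and STOP right of the dotted line. Neutrophil Slpi is highest in D0 B at 4191 CPM, and Lyz1 of monocytes and macrophages is high in D0 B alone at 301.5 CPM.

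Recovery from the diet was represented by STOP alone, which is set beside D19 B, the protocol B library nearest in diet time. With 1 library a side there is no test, and the intervals cover counting error only. Lcn2 in BECs had 1285 CPM in STOP (95% Poisson interval 1247 to 1323) and 3212 in D19 B (3164 to 3262). Wfdc18 had 322 and 940.4, Wfdc2 565 and 943, and Slpi 69.3 and 95.9 CPM. Nos2 had 2 UMIs in STOP (0.587 CPM) and 110 in D19 B (21.4 CPM). Pigr was higher in STOP, at 318 CPM (299 to 337) against 21.2 (17.4 to 25.6), and Sftpd stood at 473 and 385. D19 B had the lowest Pigr level of all libraries with a BEC sum. In STOP Pigr lay inside the range of the late diet libraries, below D9 A and above D9 B, D25 A and D25 B. Lcn2, Wfdc18 and Wfdc2 in STOP were above D0 A and below all late libraries. All late libraries lay above D0 A for 18% of all genes, and the share with STOP in between was not counted. In STOP Pigr was at 1212 CPM in the 40 large duct BECs and at 39.2 CPM in those without markers. Endothelial markers summed to 1180 CPM and mesenchymal markers to 951 CPM in the STOP BECs, against 427 and 10.7 in D19 B, and their part in these differences was not tested.

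Over the 9 BEC sums, which differ in depth and cell make-up, the courses of members were compared without a test of groups. Pearson's r of log2 CPM was 0.94 between Lcn2 and Wfdc18, 0.93 between Lcn2 and Sftpd and -0.63 between Lcn2 and Pigr. It was 0.83 between Lcn2 and Slpi, 0.80 between Lcn2 and Wfdc2 and 0.006 between Lcn2 and Lyz2. The spread of r over all pairs of genes was not computed. Among 5022 genes of at least 5 mean log2 CPM, those most like Lcn2 were Atox1 (0.97), Dtnbp1 (0.97) and Ckb (0.96). Those most like Wfdc18 were 2310009B15Rik (0.98), Colgalt1 (0.98) and Srp72 (0.97), and those most like Wfdc2 were Tnfrsf1a (0.98), a receptor of tumour necrosis factor, Perp (0.98) and Avpi1 (0.97). Pigr was most like Sdha (0.95), Upp1 (0.94) and Smpdl3a (0.94), and Sftpd most like Vta1 (0.98), Rps3 (0.97) and Nudcd2 (0.96). Fbln2 (0.95) and Vat1 (0.95) followed Msln in likeness to Slpi. Lyz2 was most like Rps19bp1 (0.96), Hmox1 (0.93) and C1qb (0.92), a macrophage gene.

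Other genes of mucosal defence were read from a list of 34, of which 33 were in the files. In BECs under DDC against D0, 17 could be tested and 1 was called, against 0.637% of all genes: Wfdc17, a further whey acidic protein gene, higher by 2.76 (SE 0.43, adjusted p = 0.0286) than in D0 A, a lone control library, so that the error rests on the spread of the DDC libraries. Of 21 alternatives 6 lost this call, among them those without D9 A, D19 B or D25 A and that without the protocol term (1.60). The others were in BECs with no large duct marker UMI and in BECs with no Msln or Upk3b UMI. Wfdc17 had mean levels of 28.3 CPM in BECs and 1161 CPM in the other barcodes after TMM scaling. The part of free transcripts in its difference was not tested. The median over the list was 0.43, beside 0.00 over all genes tested. Late against early diet called none of 17 (median 0.33, beside 0.02). Against the other barcodes, 9 of 15 were higher and 5 lower in BECs, beside 31.6% and 34.1% of all genes (median 2.05, beside -0.04). Wfdc15b (3.81) and Clu (3.71), which encodes the chaperone clusterin, were higher, and Wfdc17 (-5.41), Saa3 (-5.02) and Wfdc21 (-3.58) were lower. Between the duct subsets 3 of 10 were higher and 4 lower with large duct markers, beside 20.3% and 22% of all genes (median -0.10, beside -0.04). Duox2, an oxidase that supplies hydrogen peroxide at mucosal surfaces, was higher by 7.89 (SE 0.28), Ccl28, a chemokine that attracts IgA-secreting cells, by 3.74 (SE 0.29), and the peptidoglycan binder Pglyrp1 by 1.93 (SE 0.47), while Wfdc3 (-2.72) and complement C3 (-1.95) were lower.

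Of 20 receptors and regulators of the programme, 18 were tested in BECs over the diet and none was called in either contrast (medians -0.09 and 0.05). Over all genes 0.637% were called for DDC against D0 and 0% for late against early (medians 0.005 and 0.02). Against other barcodes 3 of 18 were higher and 11 lower in BECs (median -0.64), beside 31.6% and 34.1% of all genes and a median of -0.04. The interleukin 17 receptor chains differed in sign, with Il17rc higher by 1.99 (SE 0.21) and Il17ra at -2.66 (SE 0.15), and Tlr2 (-1.82), Nfkb1 (-1.26) and Cebpb (-1.19) were lower. With large duct markers 6 of 17 were higher and 8 lower (median -0.35), beside 20.3% and 22% of all genes and a median of -0.04. Tlr4 (2.68) and Tlr2 (1.52, a call lost in 2 of 18 alternatives), receptors of bacterial products, were higher, and Nfkbia (-1.52), Relb (-1.46) and Il1r1 (-1.45) were lower. Of 14 partners and ligands, 10 were tested over the diet and none was called (medians -0.30 and 0.13), beside 0.637% and 0% of all genes (medians 0.005 and 0.02). Against other barcodes 3 of 10 were higher and 6 lower (median -1.31), beside 31.6% and 34.1% of all genes, with Arg1 (-3.34), Lrp1 (-2.66), the protease gene Prtn3 (-2.41), Lrp2 (-2.21) and Grn (-1.95) furthest apart. The Lrp2 call was lost in 7 of 17 alternatives, 6 of them without 1 library (D0 A, D3 B, D5 B, D19 B, D25 A or D25 B). Of 4 tested between the duct subsets Lrp1 was higher (1.43), and Slc22a17, which encodes a lipocalin 2 receptor, and Gch1, which supplies the cofactor of Nos2, were lower (-1.16 and -1.05), beside 20.3% of all genes higher and 22% lower (median of the list -0.55, beside -0.04). The Slc22a17 call was lost in BECs free of leukocyte transcripts. None of the 3 lists had a called gene in neutrophils (10, 16 and 5 tested, medians -0.59, 0.15 and -0.29) or in monocytes and macrophages (12, 18 and 11 tested, medians -0.39, -0.11 and -0.05). Over all genes 0.159% were called in neutrophils (median -0.01) and 1.28% in monocytes and macrophages (median 0.02). An absence of calls thus sets these lists little apart.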

How the data were processed

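Mouse liver cells were profiled by droplet 3′ single-cell RNA-seq. The values deposited by the authors are unnormalized UMI counts of genes in barcodes, quantified with kallisto against GRCm38 according to the submitters' processing notes, with the version and annotation not given in the sources used here. Each matrix holds 630081 or more barcodes, so cells had not been selected. No doublet caller was run here, and doublets and free transcripts remain. One matrix was stored as barcode by gene and was transposed. Barcodes with at least 1500 UMIs were gated on marker UMIs, with BECs decided by the given rule, and the other gates' thresholds were set after the counts were seen. The members and lists were chosen with earlier results of these data known. All 10 members were entered in every comparison. Members with no value printed for a comparison were not called in it or had too few UMIs for the test. Of each list up to 5 called genes were named by size, and the 3 genes most like each member of at least 5 mean log2 CPM. CPM is a gene's UMIs over the summed UMIs of a gate in a library, times 1e+06. Sums of libraries with at least 20 barcodes were tested with edgeR 4.0.16 (quasi-likelihood test, TMM, filterByExpr, isolation protocol or library as a term, Benjamini-Hochberg at 0.05) in R 4.3.3, and with DESeq2 1.42.0 as an alternative. Robust estimation was used at first, and the non-robust one replaced it with the real counts already seen, after robust estimation made more false calls on simulated counts. Log2 differences are those of the fitted model. Shares have exact binomial and levels exact Poisson 95% intervals. The scripts were tested on simulated data. Depth is given with the results. Alternatives were other size factors, no filter, other minimums of UMIs and barcodes, thinning, other BEC gates, no protocol term and leaving out each library. D0 B, D3 A and D5 A entered no BEC sum. STOP entered no test. One marker of the BEC check is not reported here.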

Additional observations from a re-analysis of the deposited data

Results flagged for a closer look

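In 5 of 40 groups of 4 to 10 libraries, 1 library stood far from the others by Dixon's test at the 95% level, which chance does in about 1 of 20 groups. Ltf in late BECs was 71.2 CPM in D9 A, with the nearest of the other 5 late libraries at 21.1 CPM. D9 A had the highest share of BECs with large duct markers, at 53.3%. Pigr in late neutrophils was 96.5 CPM in D9 A, with the nearest library at 32.1 CPM, and Ltf in late monocytes and macrophages was 15.5 CPM in D9 A, with the nearest at 3.23 CPM. Wfdc18 in late monocytes and macrophages was 314 CPM in D25 B, the library with the highest BEC level of Wfdc18 (1569 CPM), with the nearest at 121 CPM. Pigr in early monocytes and macrophages was 67.7 CPM in D3 B, the library with the highest BEC level of Pigr (693 CPM), with the nearest of the other 3 early libraries at 6.88 CPM.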

How the results depend on the processing

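For the diet comparisons no paired analysis was possible, because the labels number no mice or batches and the A and B libraries of a day share only the day. The comparisons within a library had the library as a block, and without it BECs against other barcodes gave 8523 genes and the duct subsets 3123. The count of genes called for DDC against D0 in BECs, 91, was 498 with DESeq2, 162 with robust estimation, 1284 without a filter on low counts, 422 without the protocol term, 156 after thinning, 40 in BECs free of leukocyte transcripts and 12 in BECs with no large duct marker UMI. It was 0 to 420 when a library was left out, with 0 without D9 A or D25 A, 1 without D19 B, 40 without D9 B, 137 without D25 B and 420 without D3 B, and no fit was possible without D0 A. Late against early diet, 0 by edgeR, was 32 with DESeq2, 305 without a filter and 6 in BECs free of leukocyte transcripts, and 0 to 28 when a library was left out (28 without D5 B). BECs against other barcodes, 9753, was 5761 after thinning and 9040 to 9759 when a library was left out, and the duct subsets, 4449, gave 1200 after thinning and 3477 to 4641. Neutrophils, 14, gave 72 with DESeq2, 22 with other size factors (RLE), 26 with robust estimation, 465 without a filter, 8 with 50 barcodes required, 2 without the protocol term, 6 at 3000 UMIs and 4 after thinning, and 3 to 54 when a library was left out (3 without D0 A, D3 A or D5 A, 5 without D9 A, 7 without D25 A, 8 without D9 B, 31 without D0 B or D25 B, 54 without D19 A). Monocytes and macrophages, 184, gave 681 with DESeq2, 670 without a filter and 31 without the protocol term, and 69 to 997 when a library was left out (69 without D5 A, 92 without D25 A, 101 without D3 B, 103 without D19 B, 105 without D5 B, 107 without D9 B, 997 without D0 A). Leaving out the filter or a library changes the genes or samples tested, and otherwise the cause was not tested.

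Signs of uncalled members turned as follows. For DDC against D0 in BECs, Pigr was -0.70 without the protocol term and -1.32 in BECs with no large duct marker, Ltf was 0.094 after thinning, 0.32 in BECs free of leukocyte transcripts and 0.72 in BECs with no Msln or Upk3b UMI, Nos2 was -1.15 after thinning and -0.062 in BECs free of leukocyte transcripts, where Slpi was -0.33. For late against early diet Sftpd was -0.062 after thinning, Ltf -0.040 in BECs free of leukocyte transcripts and Lyz2 1.01 in BECs with no large duct marker. Leaving out 1 library gave values of -0.98 to 0.66 for Pigr, -4.58 to 1.08 for Slpi and -2.33 to 1.0 for Nos2 against D0, of 1.0 to 3.12 for Lcn2 there, and of -0.38 to 3.76 for Lcn2, -2.14 to 0.96 for Pigr, -0.16 to 0.83 for Sftpd, -2.55 to 0.18 for Lyz2 and -5.05 to 0.35 for Lyz1 in late against early. Between the duct subsets Lyz2 was -0.41 with 50 barcodes required and -0.053 to 0.91 when a library was left out. In neutrophils Lcn2 was 0.069 with 50 barcodes, 0.072 after thinning and 0.18 at 3000 UMIs, where Lyz2 was 0.17, and without D0 A Lcn2 was 0.85, Wfdc2 1.70 and Ltf 2.82, with Lcn2 at 0.07 without D9 B. In neutrophils the ranges were -0.54 to 0.85 for Lcn2, -4.00 to 1.70 for Wfdc2 and -3.14 to 2.82 for Ltf. In monocytes and macrophages Slpi was -0.82 to 0.083, Pigr -1.72 to 3.30 (both highest without D0 A) and Wfdc18 -0.52 (without D0 B) to 3.11. No called member turned its sign in any alternative. Without a filter on low counts, Wfdc18, Slpi, Pigr, Lyz2, Lyz1, Ltf and Nos2 passed in late against early diet, and Slpi, Wfdc2, Pigr, Sftpd and Ltf in neutrophils. The Lyz1 call in monocytes and macrophages was lost with robust estimation (adjusted p = 0.0579). The non-robust estimation behind the reported values replaced robust estimation after the counts had been seen. BECs passing no other gate and the splits on large duct markers and on Msln and Upk3b were also chosen after seeing the data. Ltf, Nos2 and Lyz1 had too few UMIs to be tested between the duct subsets.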
